A study of Mus musculus with 4 samples.

Results

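The genes examined here were 8 markers of the primitive endoderm, taken by their symbols: the transcription factors Gata4, Gata6, Sox7 and Sox17, the receptor Pdgfra, the endocytic adaptor Dab2, the matrix protein Sparc and the proteoglycan Srgn. A row of the RNA table was held by 6 of the 8, among 14533 genes in all. Sox7 and Dab2 had no row and were not analysed here. The RNA came from mouse embryonic stem cells (ESCs), with 2 serum libraries and 2 libraries of 2i, 4 in all. The serum ESCs grew in medium with fetal calf serum and the cytokine LIF, and the 2i ESCs grew in serum-free medium with LIF, the GSK3 inhibitor CHIR99021 and the MEK inhibitor PD0325901, each for over 20 days. The sample labels place all cells in late G1-phase, while the series description names early G1-phase. The labels give no cell line, genotype or strain for these libraries, and nothing beyond the words biological replicate says that libraries of a group came from separate cultures, so that p-values measure only the spread between these libraries.

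The primitive endoderm is the layer of the blastocyst that separates from the epiblast, from which ESCs derive, and later forms the visceral and parietal endoderm of the yolk sacs. FGF4 from epiblast cells acts through FGF receptors and the MEK and ERK kinases to maintain Gata6 in the cells that become endoderm, while Nanog opposes Gata6 in the epiblast. Gata6 precedes Gata4, Sox17 and Sox7 in this lineage, Pdgfra is an early receptor of its cells, Dab2 orders them at the surface, and Sparc and Srgn are secreted products that parietal endoderm makes in large amounts.

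Values are normalized counts, that is, gene counts divided by a scaling factor for each library. The libraries held 18939401 to 26570098 whole reads, of which protein-coding genes took 46.9% in serum replicate 1, 76.3% in serum replicate 2, 57.8% in 2i replicate 1 and 66.3% in 2i replicate 2. The 10 genes with most reads took 50.6% of serum replicate 1 and 17.5% to 34.7% of the other libraries. ESC identity was checked with 8 pluripotency markers, which all had a row and summed to 57910 and 64314 normalized counts under serum and to 66910 and 69353 under 2i. Single markers were less even than the sums. In 2i replicates 1 and 2 Zfp42 had 3793 and 13191 and Pou5f1 had 8452 and 20050. Tbx3 went the other way, at 3462 and 1764. Under serum Zfp42 had 8297 and 14926.

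Gata4, Gata6 and Sox17 were each higher in both 2i libraries than in either serum library, by 4.48 to 5.74 times on the means. Srgn, Sparc and Pdgfra overlapped between the conditions. None of the 6 genes was called different, where a call needed an adjusted p under 0.05 and a fold change over 2. The test was limma on log2(normalized count + 1), and a log2 fold change below 0 stands for a lower value in serum. This scale understates the change of low genes. Because bulk RNA was measured, fewer cells that express a gene cannot be told apart from less of its RNA per cell.

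**Figure D1:**
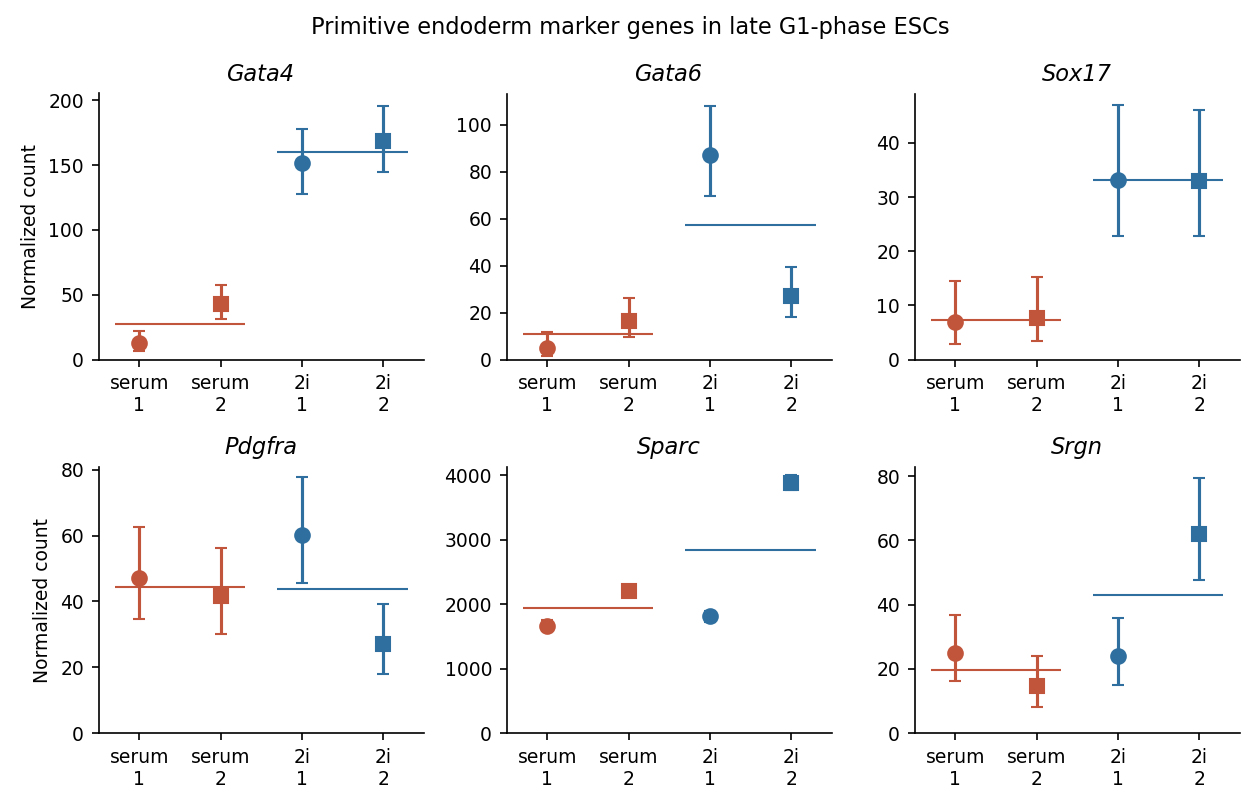
Normalized counts of the 6 marker genes in each library (circles, replicate 1; squares, replicate 2; red, serum; blue, 2i), with lines at the group means and bars for the 95% Poisson interval of the whole reads, which covers counting error only. Gata4, Gata6 and Sox17 show both 2i libraries above both serum libraries, while the other 3 genes overlap; each panel has its own axis from 0.

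The core transcription factors came first. Gata4 (ENSMUSG00000021944), a zinc finger factor of the GATA family that binds endoderm enhancers, lies on the minus strand of mm9 chromosome 14 from 63817759 to 63890529. It was read at 13.01 and 42.8 normalized counts under serum and at 151.6 and 168.8 under 2i. The means were 27.9 ± 21.0 (SD, n = 2) in serum and 160 ± 12.2 (SD, n = 2) in 2i, a ratio of 5.74. Both 2i libraries stood well above both serum libraries, and the serum libraries stood further apart from each other, by 1.64 on the log2 scale, than the 2i libraries, by 0.15. The log2 fold change was -2.70 (SE 0.92, 95% interval -4.91 to -0.49), with an unadjusted p of 0.0238 and an adjusted p of 0.753 (limma, Benjamini-Hochberg). It was the only marker gene whose interval left out 0. On the whole reads recovered from the table, edgeR gave an unadjusted p of 0.0302 and an adjusted p of 0.699, and DESeq2 gave 0.00674 and 0.163. The fold change rested on which serum library was kept, at -1.88 (log2) when replicate 1 was left out and -3.52 when replicate 2 was.

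The sister factor Gata6 (ENSMUSG00000005836), on the plus strand of chromosome 18, is the earliest factor of the lineage. It had 5.003 and 16.5 normalized counts under serum and 87.2 and 27.2 under 2i, from 5, 17, 84 and 28 whole reads. The 2i libraries both lay above serum but differed from each other, replicate 1 being the higher by 1.65 on the log2 scale. The group means were 10.8 ± 8.15 (SD, n = 2) and 57.2 ± 42.5 (SD, n = 2), a ratio of 5.31. The log2 fold change was -2.28 (SE 1.66, 95% interval -6.28 to 1.72, limma adjusted p 0.763), and it ranged from -3.10 without 2i replicate 2 to -1.46 without 2i replicate 1, with -3.05 when serum replicate 2 was left out and -1.51 when serum replicate 1 was. A lincRNA on the opposite strand, 1010001N08Rik, shares 58 exon bases with Gata6, and the library kit did not keep the strand, so that reads of those bases cannot be assigned to either gene.

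Sox17 (ENSMUSG00000025902), an HMG-box factor needed for endoderm, spans 4481009 to 4486494 on the minus strand of chromosome 1. It was read at 7.004 and 7.78 normalized counts under serum and at 33.2 and 33.0 under 2i. This was the tightest pattern of the 6 genes, as replicates differed by 0.13 in serum and by 0.01 in 2i on the log2 scale. The values rest on few reads, 7 and 8 under serum and 32 and 34 under 2i, and the Poisson intervals of the reads ran from 2.81 to 15.8 in serum and from 21.9 to 47.5 in 2i. The means of 7.39 ± 0.546 (SD, n = 2) and 33.1 ± 0.169 (SD, n = 2) differed by a ratio of 4.48. Since neither mean reached 50, the gene was fitted only with all 14533 genes, where the log2 fold change was -2.02 (SE 1.35, 95% interval -5.30 to 1.25, limma adjusted p 0.768). The SE is larger than the spread of these 4 libraries because limma sets it partly from the spread of other genes at the same level.

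The receptor Pdgfra (ENSMUSG00000029231), which binds PDGF ligands and serves widely as a surface marker of the primitive endoderm, spans 75548316 to 75594229 on the plus strand of chromosome 5. It was read at 47.0 and 41.8 normalized counts under serum and at 60.2 and 27.2 under 2i. The serum libraries fell between the 2i libraries, and the means, 44.4 ± 3.70 and 43.7 ± 23.4 (SD, n = 2 each), were nearly equal. The log2 fold change over all genes was 0.13 (SE 0.90, 95% interval -2.05 to 2.30, limma adjusted p 0.979), and the interval reached beyond a 2-fold difference either way. Its sign depended on 2i replicate 2, without which it was -0.43.

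Sparc (ENSMUSG00000018593), a secreted collagen-binding glycoprotein, spans 55208002 to 55233582 on the minus strand of chromosome 11. It was by far the most abundant of the 6, at 1665 and 2208 normalized counts under serum and at 1809 and 3883 under 2i. Only 2i replicate 2 stood apart, since 2i replicate 1 fell between the serum libraries. The log2 fold change was -0.47 (SE 0.53, 95% interval -1.75 to 0.82, limma adjusted p 0.842), and it was 0.084 without 2i replicate 2. Sparc had at least 1664 reads in every library, and the 2i libraries differed from each other by 1.10 on the log2 scale.

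Srgn (ENSMUSG00000020077), the core protein serglycin that carries glycosaminoglycan chains in secretory granules, spans 61956581 to 61990199 on the minus strand of chromosome 10. It was read at 25.0 and 14.6 normalized counts under serum and at 23.9 and 62.1 under 2i. Again 2i replicate 2 was the highest library, and 2i replicate 1 lay among the serum values. The log2 fold change over all genes was -0.98 (SE 1.12, 95% interval -3.69 to 1.73, limma adjusted p 0.845). It was -0.31 without 2i replicate 2, -0.61 without serum replicate 2 and -1.65 without 2i replicate 1.

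**Figure D2:**
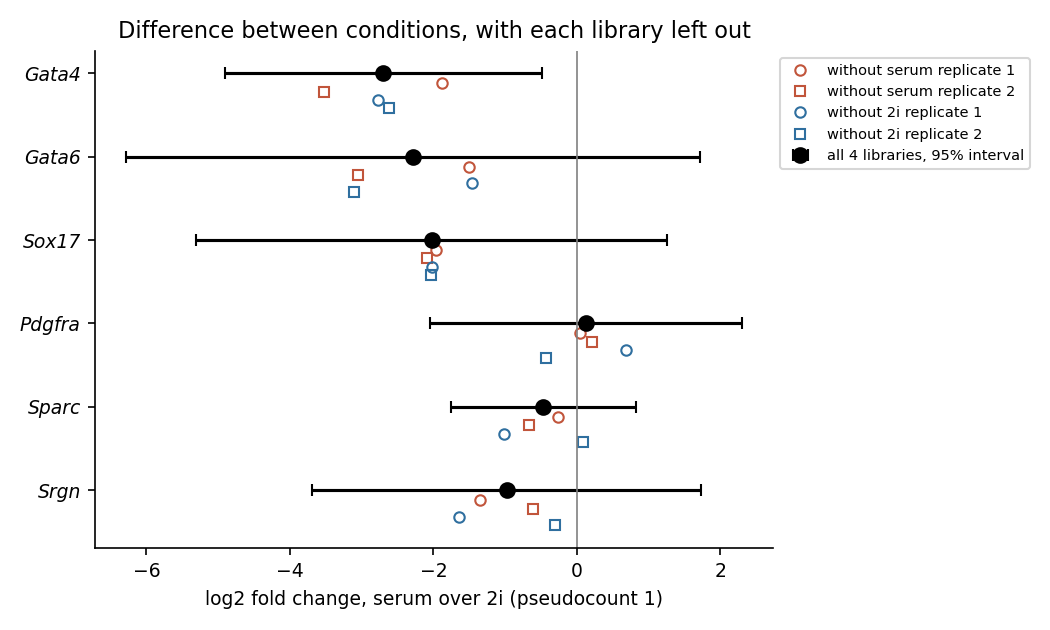
Log2 fold changes of serum over 2i (pseudocount 1) for the 6 genes, with black points and 95% limma intervals for all 4 libraries and open symbols for fits without 1 library. Gata4, Gata6, Sox17 and Srgn stay below 0 in each of these fits, whereas Pdgfra and Sparc cross 0 when 2i replicate 2 is left out.

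As a group, 5 of the 6 genes had a log2 fold change below 0, and the median was -1.50 against -0.0186 over all 14533 genes. Over the 3 genes that passed the filter, a mean of at least 50 in either condition, the median was -2.28 against 0.0047 over the 13005 genes kept. Gata4 and Gata6 passed only through their 2i values, so that the latter median is set in part by the filter. The deposited values held no gene with fewer than 51 reads over the 4 libraries. Gata6 (5 and 17 reads under serum, 84 and 28 under 2i) and Sox17 (7 and 8, 32 and 34) needed their 2i reads for a row. Srgn, with 25 and 15 reads under serum and 23 and 64 under 2i, needed its 2i reads as well. The median and the counts of the 6 genes are thus also set in part by a cut on reads. The share of all genes with both 2i libraries above both serum libraries was 20.1%, and it was 19.5% in the opposite direction; the marker genes had 3 of 6 and 0 of 6. With 6 genes from the same 4 libraries, these counts are a description.

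Calls across the genome were rare, so that a count of 0 among 6 genes says little. In the limma fit 2 of 13005 genes were called (0.0154%), and without the filter 2 of 14533 (0.0138%). At an unadjusted p under 0.05 with a 2-fold change, 3.2% of all genes were higher in 2i and 2.76% higher in serum, and 1 of the 6 marker genes, Gata4, was among the former. The same count was 1 of 6 against 3.85% by edgeR and 1 of 6 against 7.2% by DESeq2. After adjustment edgeR called 0% of all genes and DESeq2 called 1.65%, and limma with the replicate number as a block called 0.895%; each called 0 of the 6 marker genes. An exact permutation test of a single gene with 2 libraries against 2 could not give a two-sided p below 0.333.

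The genes were expressed at very different levels. Per kb of exons and averaged over the 4 libraries, Sparc had 710 normalized counts, above 91.3% of 12926 protein-coding genes, whose median was 93.9. All other marker genes were below that median in each library. Their means were 24.05 for Gata4, 14.3 for Srgn, 10.6 for Gata6, 6.54 for Pdgfra and 6.42 for Sox17, at or under the 19.3rd percentile. The order differed by condition. In serum Srgn followed Sparc with 9.01 per kb, then Gata4 with 7.13, Pdgfra with 6.59, Gata6 with 3.37 and Sox17 with 2.34. In 2i Gata4 was second with 41.0 per kb, followed by Srgn with 19.6, Gata6 with 17.9, Sox17 with 10.5 and Pdgfra with 6.48. Only Sparc in both conditions, and Gata4 in 2i, stood clear of the next gene in every library. Neighbours below them in these orders overlapped between libraries, except that Pdgfra lay above Gata6 in serum and Sox17 above Pdgfra in 2i. No stretch of 43 bases, the length of a read, in the transcripts of the 6 genes occurred in a protein-coding transcript of another gene.

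**Figure D3:**
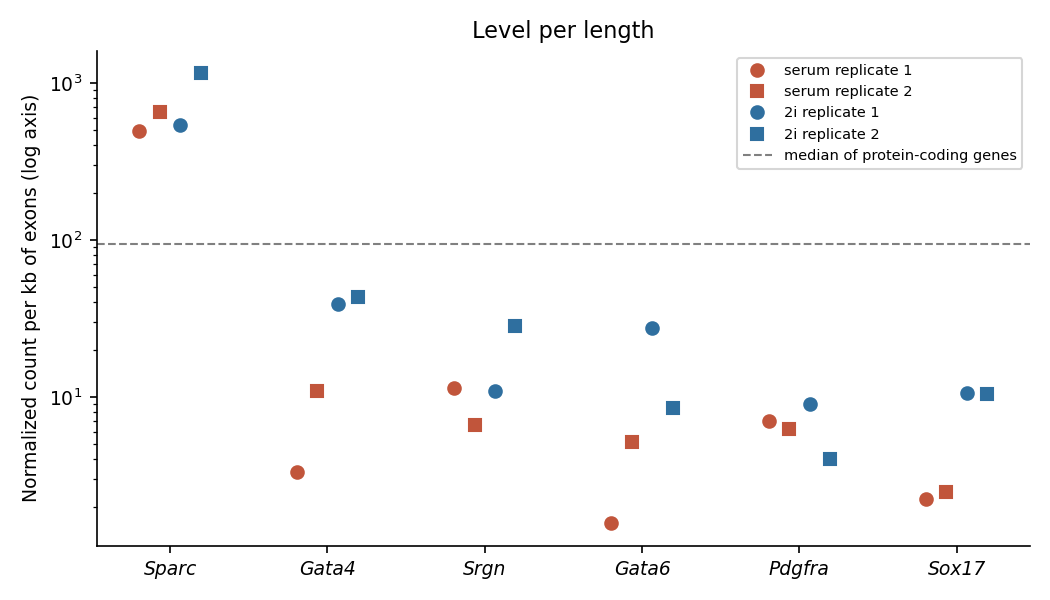
Normalized count per kb of exons for the 6 genes in each library on a log axis, ordered by the mean over 4 libraries, with a dashed line at the median of protein-coding genes (93.9). Sparc lies above the line in all libraries and the other 5 genes lie below it.

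To show where transcription of the secreted products and the receptor starts, the 250 bases before each start site are given for Sparc, Pdgfra and Srgn, which held entries in the RefSeq promoter table together with Dab2 (4 of 8 genes). They are in build GRCm38.p6, not the mm9 build of the counts, and read 5′ to 3′ on the strand of the gene: Sparc at chr11:55420081-55420330 (minus), Pdgfra at chr5:75152001-75152250 (plus) and the 2 starts of Srgn at chr10:62527446-62527695 and chr10:62507758-62508007 (minus). Capitals mark a match to a searched motif.
Sparc: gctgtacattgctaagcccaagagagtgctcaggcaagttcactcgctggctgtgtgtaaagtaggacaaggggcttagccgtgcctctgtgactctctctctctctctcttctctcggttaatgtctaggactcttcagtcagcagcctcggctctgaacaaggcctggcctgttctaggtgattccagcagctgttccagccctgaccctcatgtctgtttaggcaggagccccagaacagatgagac
Pdgfra: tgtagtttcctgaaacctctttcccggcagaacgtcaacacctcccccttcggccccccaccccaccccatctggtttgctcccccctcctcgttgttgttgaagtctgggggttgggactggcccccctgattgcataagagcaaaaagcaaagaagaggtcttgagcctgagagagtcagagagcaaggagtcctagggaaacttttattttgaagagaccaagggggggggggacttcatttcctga
Srgn, first start: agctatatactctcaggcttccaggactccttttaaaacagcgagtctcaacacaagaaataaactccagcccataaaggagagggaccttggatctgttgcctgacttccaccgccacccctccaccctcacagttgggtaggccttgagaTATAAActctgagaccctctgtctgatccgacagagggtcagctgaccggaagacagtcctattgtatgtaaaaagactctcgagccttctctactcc
Srgn, other start: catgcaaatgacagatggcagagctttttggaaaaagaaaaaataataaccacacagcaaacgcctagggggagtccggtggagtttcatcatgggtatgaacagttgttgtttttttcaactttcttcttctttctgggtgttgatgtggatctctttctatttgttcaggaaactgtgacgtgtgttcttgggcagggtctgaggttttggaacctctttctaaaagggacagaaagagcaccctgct
On both strands these were searched for a GATA site (AGATAA, with T also allowed as the first base and G as the last), a SOX site (AACAAT, or the longer form AACAAAG), the letters TATAAA of a TATA box, and the GC box (GGGCGG). The sole match in these 4 sequences was TATAAA at the first Srgn start, 98 bases before it, so that no motifs overlapped. Of 32851 mouse promoters of this length, 26.5% held a GATA site, 13.8% a SOX site, 12.4% TATAAA and 32.7% the GC box. The CpG count was 4 in Sparc, 4 in Pdgfra and 5 and 3 at the Srgn starts, against a median of 6.

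Other transcription factors of the primitive and visceral endoderm were examined next, from a list of 8 genes. Only Sall4, Hnf4a and Klf5 had a row, and 0 of the 3 were called. Sall4, a zinc finger factor that ESCs use as well, was read at 2561 and 3623 normalized counts under serum and at 1645 and 980 under 2i, with a log2 fold change of 1.26 (limma over all genes, unadjusted p 0.0381, adjusted p 0.761). It was thus higher in both serum libraries, opposite in direction to Gata4. Hnf4a, a nuclear receptor of the visceral endoderm, had 90.0 and 10.7 under serum and 68.5 and 447 under 2i, so that replicates of a condition lay far apart. The median of the 3 genes was 0.56, or -0.31 without 2i replicate 2.

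The basement membrane that endoderm cells lay down is built from laminin, type IV collagen and nidogen. All 11 genes of this list had a row, 0 were called, and the median log2 fold change was 0.18. Nid1 (nidogen), at 2071 and 2333 under serum and 2477 and 4701 under 2i, and the collagen prolyl hydroxylase subunits P4ha1, at 415 and 522 against 779 and 996, and P4ha2, at 190 and 128 against 339 and 284, were higher in both 2i libraries. These were 3 of 11 genes, against 20.1% of all genes, and 0 of 11 were higher in both serum libraries, against 19.5%. Col4a1, a type IV collagen chain, ranged from 297 to 1626 within serum and from 137 to 488 within 2i. The laminin chains Lama1 and Lamc1 had log2 fold changes of 0.25 and 0.30, which were -0.092 without serum replicate 2 and -0.11 without 2i replicate 2, respectively. The sign of the list's median was not stable, at -0.29 without 2i replicate 2 and -0.09 without serum replicate 2.

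Of 13 visceral endoderm genes for uptake and secretion, 5 had a row, and the carriers Ttr and Afp were among the 8 without one. The endocytic receptor Lrp2 had 299 and 1065 normalized counts under serum and 141 and 177 under 2i, a log2 fold change of 1.83. Apolipoprotein E, Apoe, had the opposite sign, at 2735 and 1125 under serum and 4089 and 5334 under 2i, a log2 fold change of -1.41. Neither was called (limma over all genes, unadjusted p 0.0371 and 0.0446, adjusted p 0.761 for both). The median of the 5 genes was 0.11, or -0.17 without 2i replicate 1. The parietal endoderm list had 3 of 6 genes with a row and a median of -2.09, which was -0.95 without serum replicate 2, -1.42 without 2i replicate 2 and -1.09 after quantile normalization. Plat, the tissue plasminogen activator, was read at 23.0 and 3.89 under serum and at 28.0 and 72.8 under 2i. Snai1, a repressor of epithelial genes, was listed at 0 and 6.80 under serum and at 56.1 and 12.6 under 2i. Both were higher in both 2i libraries, 2 of 3 genes against 20.1% of all genes. Plat (23 and 4 reads under serum, 27 and 75 under 2i) and Snai1 (0 and 7, 54 and 13) needed their 2i reads for a row. This count and the median of the list are thus set in part by the cut on reads. Fst overlapped between the conditions, at 71.0 and 37.9 under serum and 41.5 and 144 under 2i. These are low values, and 0 of the 3 were called.

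**Figure D4:**
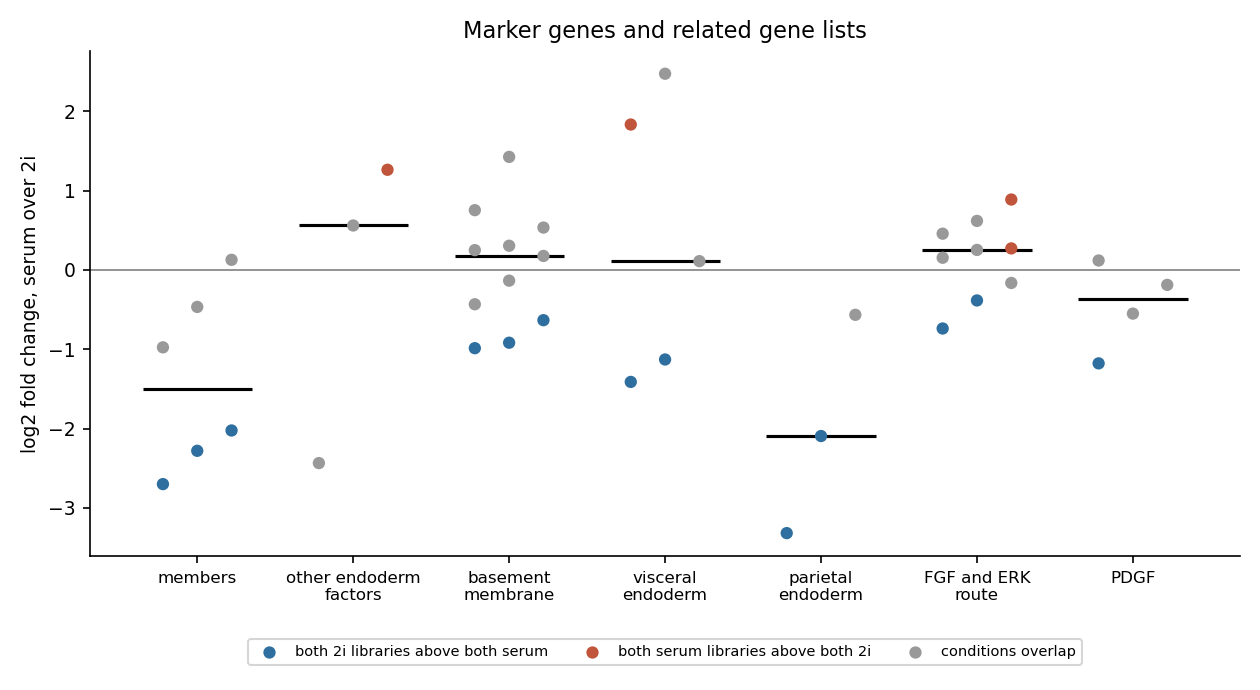
Log2 fold changes of serum over 2i for the marker genes with a row and for genes of 6 related lists, with black lines at the medians. Blue points have both 2i libraries above both serum libraries, red points the reverse, and grey points overlap; with all 4 libraries the medians run from -2.09 for parietal endoderm to 0.56 for other endoderm factors.

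The signal that drives Gata6 in the embryo runs from FGF4 to ERK, downstream of the kinase that one of the 2i inhibitors blocks. Of 10 genes on this route and its antagonist, 9 had a row, 0 were called, and the median log2 fold change was 0.25, or -0.47 without 2i replicate 2. The ligand Fgf4 had 1809 and 1296 normalized counts under serum and 2720 and 2402 under 2i, a log2 fold change of -0.74. The receptor Fgfr1 ranged from 435 to 1079 in 2i, which spanned both serum values, and Fgfr2 had no row. Ptpn11, the phosphatase SHP2 that relays the signal, was read at 1472 and 2073 under serum and at 946 and 943 under 2i. It was higher in both serum libraries, with a log2 fold change of 0.89. Nanog, which opposes Gata6, had 9449 and 10040 under serum and 13612 and 11893 under 2i, a log2 fold change of -0.39. Fgf4 and Nanog thus shared the direction of Gata6, and no adjusted p on this list was under 0.05.

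Ligands and the sister receptor of Pdgfra made a list of 5, of which 4 had a row and 0 were called, with a median log2 fold change of -0.37, or -0.85 without serum replicate 1 and -0.09 after quantile normalization. The ligand Pdgfa was read at 880 and 468 normalized counts under serum and at 665 and 806 under 2i. The receptor Pdgfrb had 74.0 and 45.7 under serum and 227 and 77.6 under 2i, a log2 fold change of -1.18. Of 5 GATA and SOX paralogs, Gata3 alone had a row.

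Markers of other cell types were read beside these genes. The trophoblast markers (4 of 7 with a row) summed to 995 and 364 under serum and to 4239 and 407 under 2i, the highest library being 2i replicate 1, in which Gata6 was also highest. Elf5, a trophoblast factor, had 2215 normalized counts there and 80.7 to 118 in the other libraries. Tfap2c had 1743 there and 257 to 648 elsewhere, and Krt7 had 248 there and 16.5 to 85.0 elsewhere. Gata3 went another way, highest in serum replicate 1 at 143, with 9.72 in serum replicate 2 and 32.2 and 8.73 under 2i. Cdx2, Hand1 and Plac1 had no row. The part of the trophoblast markers in the Gata6 values was not tested. Gata4 and Sox17 had nearly the same value in both 2i libraries, and the part of the trophoblast markers in their values was not tested either. The fibroblast markers (4 of 10 with a row), which bear on Sparc, summed to 345 and 309 under serum and to 357 and 251 under 2i, and Col1a2, Col3a1 and Dcn had no row. In the library with most Sparc, 2i replicate 2, the single markers went both ways: Thy1 was lowest there, at 7.76 normalized counts against 131 to 185 in the others, and Twist1, at 41.0 and 41.8 under serum and 89.3 and 143 under 2i, was highest there. The part of these in the Sparc values was not tested. The mesendoderm markers (3 of 6) summed to 275 and 140 under serum and to 280 and 261 under 2i, the blood cell markers (1 of 6) to 95.05 and 71.9 and to 38.4 and 110, and the endothelial markers (3 of 4) to 1524 and 918 and to 2055 and 1868. Pecam1 made up most of the endothelial sums, at 1375 and 815 under serum and 1946 and 1625 under 2i. Kdr had only 17.0 and 59.3 against 62.3 and 114, and Tek 132 and 42.8 against 46.7 and 129. Gsc, a mesendoderm factor, had 16.01 and 0.972 under serum and 36.3 and 81.5 under 2i. It was the 1 of 3 mesendoderm markers that was higher in both 2i libraries, against 20.1% of all genes. With 16 and 1 reads under serum and 35 and 84 under 2i, Gsc also needed its 2i reads for a row. The other mesendoderm markers with a row overlapped between the conditions. T had 102 and 6.80 under serum and 11.4 and 68.9 under 2i, and Eomes had 157 and 132 against 233 and 111.

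The genes whose pattern over the 4 libraries was nearest to each marker that passed the filter were found by the Euclidean distance of centred log2 values among 11815 protein-coding genes. For Gata4 these were Espn at a distance of 0.507 and Cblc at 0.545. Espn, which encodes an actin-bundling protein, was read at 10.01 and 21.4 under serum and at 94.5 and 86.3 under 2i. For Gata6 the nearest were App, the amyloid precursor protein gene, at 0.438 and Dnahc2 at 0.497, which had their highest values, 164 and 104, in 2i replicate 1 as Gata6 did. For Sparc they were Adipor2, an adiponectin receptor gene, at 0.0506 and Tmem121 at 0.0567. Resting on 4 libraries, these distances are a description.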

How the data were processed

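RNA of 4 libraries (2 serum, 2 of 2i) was analysed. Sorted cells gave total RNA that was depleted of ribosomal RNA, primed at random and read from a single end. The authors aligned reads to mm9 with Bowtie, estimated expression with MMSeq and scaled it with DESeq2. The deposited values are a signal, gene counts divided by a factor per library, in 1 table of 14533 genes. In every library 100% of the values were whole multiples of the step of 1 read (1.00052, 0.972, 1.04 and 0.970; tolerance 0.01), which gave whole reads for edgeR and DESeq2 as alternatives. Names and mm9 positions came from GENCODE vM1, which held 14462 of the genes.

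The 13005 genes that reached a mean of 50 in either group were tested with limma 3.58.1 under R 4.3.3, after log2(normalized count + 1), allowing for a variance trend and using no block, and p-values were adjusted by Benjamini-Hochberg over these. A fit over all 14533 genes served Sox17, Pdgfra and Srgn. Alternatives were edgeR 4.0.16, DESeq2 1.42.0, other scalings, pseudocounts and filters, a replicate block and leaving out each library. The marker genes and lists were chosen with earlier results of these data known. Named were all marker genes, genes of the lists (1 of which is not reported here), and for each marker gene past the filter the 2 protein-coding genes nearest in pattern. Intervals of reads are exact Poisson and cover counting error only.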

Additional observations from a re-analysis of the deposited data

How the results depend on the processing

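None of the 6 marker genes was called under any alternative run. The number of genes called among those past the filter was 2. It was 4 with a mean of at least 200 (which left Sparc alone of the marker genes), 1 without the variance trend and 0 by edgeR. With the replicate number as a block it was 203 (44 higher in serum and 159 higher in 2i), and by DESeq2 251 (73 and 178). Over all 14533 genes the block called 130 and DESeq2 called 240. The cause of these differences was not tested. The replicate numbers were not shown to pair the libraries: the replicate differences of serum and 2i correlated across 13005 genes (r = 0.480), but 2 pairs do not decide it. The median log2 fold change of the 6 genes, -1.50, was -1.02 after quantile normalization, which gave -1.42 for Sox17 and -0.12 for Srgn, and under the other alternatives it stayed within 1 SD. Upper quartile scaling moved the median of all genes from -0.0186 to -0.138, and no marker gene changed its sign under any scaling. Leaving out 1 library turned the sign of some log2 fold changes, which ranged from -0.43 to 0.69 for Pdgfra, -1.02 to 0.084 for Sparc, -1.03 to 0.023 for Adipor2, -4.49 to 0.19 for Elf5, -0.82 to 0.49 for Fgfr1, -0.092 to 0.59 for Lama1, -0.11 to 0.72 for Lamc1, -0.64 to 0.27 for Pdgfa, -2.09 to 0.46 for Tfap2c and -1.02 to 0.12 for Tmem121. Gata4 ranged from -3.52 to -1.88. Depth limits Sox17 and Gata6 in serum, with 5 to 17 reads in a library.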
